A study of Mus musculus with 20 samples.

Results

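The white fat and lipolysis genes are 10 genes of the lipid-storing adipocyte, followed here in RNA from the abdominal aorta of the mouse. They were chosen by name, with no measured value in the rule, but with earlier results of these data known. They are the adipokine genes Adipoq and Lep, the lipid droplet coats Plin1 and Plin4, the lipases Lipe and Pnpla2, the fatty acid supply genes Lpl, Cd36 and Fabp4, and the regulator Pparg. All 10 were found among the 43422 genes listed for each of the 20 mice. The study asked how the loss of lysyl hydroxylase 1, the collagen-modifying enzyme encoded by Plod1, alters the aorta under angiotensin II (Ang II), a peptide that raises blood pressure and is infused into mice to induce dissecting aneurysms. Littermates of both genotypes received either infusion, which gave the groups WT saline, WT Ang II, Plod1-/- saline and Plod1-/- Ang II, with 5 mice and 5 libraries in each. All were labelled C57BL/6, 6 months of age, and were sampled on day 14 of infusion. The methods name the substrain as C57Bl/6NCrl and give a younger age when infusion began. Ang II was given by osmotic pump at 1000 ng/kg per minute. The Plod1-/- mice lack the enzyme in the whole body, and the methods describe males only and littermates from heterozygous parents. How the fat around the vessel was handled at dissection is not given in the sources used here.

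White adipocytes keep triglyceride in a large droplet whose surface is coated by perilipins. In the fed state lipoprotein lipase frees fatty acids from circulating lipoproteins, CD36 and FABP4 take them up and carry them, and they are stored as triglyceride. On demand, adipose triglyceride lipase (Pnpla2) and hormone-sensitive lipase (Lipe) break the store down, a process that perilipin 1 restrains at rest and permits after adrenergic stimulation. PPARG is the nuclear receptor that turns on most of these genes during fat cell formation, while adiponectin and leptin are hormones that fat cells release. The outer layer of the aorta lies in perivascular fat, and vessel wall cells also express some of these genes, among them Cd36, Fabp4 and Pnpla2.

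Plod1 stood between 22.8 and 29.7 FPKM in the 10 WT libraries and at 0.0415 FPKM or less in the 10 Plod1-/- libraries. FPKM is a read density scaled to transcript length and library size, so the number of reads is unknown, and the relative depth estimated from the lowest values lay between 0.907 and 1.07. Mitochondrially encoded genes took 8.37% to 14.6% of the FPKM sum in WT saline mice, 14.6% to 29.1% in WT Ang II mice, 9.93% to 16.2% in Plod1-/- saline mice and 9.23% to 21.1% in Plod1-/- Ang II mice. Xist RNA, which male tissue lacks, was listed at 15.1 FPKM in Plod1-/- saline replicate 5 and 7.93 FPKM in Plod1-/- Ang II replicate 1, against 0.0328 FPKM or less in the other libraries. Tests on the members and on other gene lists are also given without these libraries, while summed levels are ranges over all libraries of a group. Differences were tested with limma on log2(FPKM + 1), and a gene was called at a Benjamini-Hochberg adjusted p below 0.05 and a log2 difference above 1 in size. This scale shrinks differences of low genes. Only genes at 1 FPKM or more in at least 5 of the mice compared were tested.

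The members lie on 7 chromosomes of GRCm38. Adipoq is at chr16:23146536-23158028 and Lep at chr6:29060220-29073877. Plin1 is at chr7:79720218-79732903 and Plin4 at chr17:56100591-56109803. Lipe is at chr7:25379527-25398710 and Pnpla2 at chr7:141455198-141460743. Lpl is at chr8:68880491-68907448, Cd36 at chr5:17781690-17888801 and Fabp4 at chr3:10204088-10208576. Pparg is at chr6:115360951-115490399. On the opposite strand Lipe overlaps 4732471J01Rik, which reached 0.519 FPKM at most, Pparg overlaps Gm44079, at most 1.31 FPKM, and Plin4 overlaps Hdgfl2 by 17 bases. Whether the counting used strand is not given in the sources used here, so reads in these overlaps cannot be assigned to either gene.

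Promoter sequence from RefSeq (build GRCm38.p6, from 250 bases before to 50 bases after a start site) was at hand for 8 of the 10 members, with 11 promoters in all, and not for Fabp4 and Lpl. Those shown belong to members that moved together in the results below and to Plin4, which did not. Capitals mark 4 motifs searched on both strands: AGGTCA, the half-site read by nuclear receptors such as PPARG, TTGCNNAA, the core read by C/EBP factors, CCAAT, and TATAAA. None of the marked matches shares a base with another. Adipoq (chr16:23146286-23146585, plus strand), Plin1 (chr7:79732727-79733026, minus strand), Cd36 (chr5:17835847-17836146, minus strand), Pparg (chr6:115421816-115422115, plus strand) and Plin4 (chr17:56109733-56110032, minus strand) are printed from 5′ to 3′.
Adipoq: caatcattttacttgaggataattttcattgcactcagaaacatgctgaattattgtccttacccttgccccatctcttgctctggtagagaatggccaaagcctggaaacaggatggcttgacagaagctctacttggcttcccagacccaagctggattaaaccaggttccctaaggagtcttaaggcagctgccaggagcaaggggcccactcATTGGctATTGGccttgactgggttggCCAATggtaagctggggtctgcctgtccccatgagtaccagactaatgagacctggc
Plin1: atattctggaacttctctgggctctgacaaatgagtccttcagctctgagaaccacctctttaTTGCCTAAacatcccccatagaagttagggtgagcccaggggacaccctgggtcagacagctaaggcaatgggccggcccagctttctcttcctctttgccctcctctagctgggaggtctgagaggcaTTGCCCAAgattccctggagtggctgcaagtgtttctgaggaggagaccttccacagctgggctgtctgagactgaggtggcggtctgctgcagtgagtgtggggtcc
Cd36: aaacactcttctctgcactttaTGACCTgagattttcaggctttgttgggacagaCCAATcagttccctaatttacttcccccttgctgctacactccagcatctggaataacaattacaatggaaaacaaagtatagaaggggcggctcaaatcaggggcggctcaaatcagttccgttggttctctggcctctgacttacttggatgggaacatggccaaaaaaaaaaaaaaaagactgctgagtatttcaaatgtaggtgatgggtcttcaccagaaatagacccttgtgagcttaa
Pparg: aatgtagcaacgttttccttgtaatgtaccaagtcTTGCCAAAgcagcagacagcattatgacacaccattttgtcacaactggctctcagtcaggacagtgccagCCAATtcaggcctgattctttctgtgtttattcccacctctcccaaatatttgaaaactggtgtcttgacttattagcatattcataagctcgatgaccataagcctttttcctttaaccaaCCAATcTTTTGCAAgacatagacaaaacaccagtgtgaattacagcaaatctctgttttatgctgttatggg
Plin4: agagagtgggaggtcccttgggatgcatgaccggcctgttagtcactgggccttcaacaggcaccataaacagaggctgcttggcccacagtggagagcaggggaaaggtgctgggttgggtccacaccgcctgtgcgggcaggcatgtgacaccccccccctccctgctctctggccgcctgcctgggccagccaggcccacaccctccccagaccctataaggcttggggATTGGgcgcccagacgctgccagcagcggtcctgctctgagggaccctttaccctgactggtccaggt

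Adipoq held CCAAT 3 times, on either strand, with matches starting at bases 217, 224 and 244 of the window. Plin1 held TTGCNNAA at bases 64 and 193, and Lep held it once, at base 196. Cd36 held AGGTCA at base 23 and CCAAT at base 56. The Pparg window printed held TTGCNNAA at bases 36 and 235 and CCAAT at bases 107 and 229, and AGGTCA was present in both of the other Pparg windows. The windows of Lipe and Pnpla2 held none of the 4 motifs, and no member held the direct repeat of AGGNCA and AGGTCA spaced by 1 base, the longer element that PPARG reads with its partner. These letters are common: of 32851 RefSeq promoters of the same length, 16.3% held AGGTCA, 10.8% TTGCNNAA, 37.4% CCAAT, 13.6% TATAAA and 0.0944% the direct repeat.

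Most of the 10 genes were low in WT saline aortas and high in WT Ang II aortas. In Plod1-/- mice the ratio of the Ang II mean to the saline mean ran from 0.606 for Plin4 to 5.76 for Adipoq, against 0.736 for Plin4 to 19.3 for Plin1 in WT mice, and individual mice lay far apart within each group. Summed over the 10 genes, the members took 0.0677% to 0.188% of the FPKM sum in WT saline mice and 0.246% to 0.850% in WT Ang II mice. They took 0.0984% to 0.386% in Plod1-/- saline mice and 0.120% to 0.926% in Plod1-/- Ang II mice. By mean FPKM over the 20 mice the order ran from Fabp4 (449) and Pnpla2 (410.3) through Adipoq (153), Plin4 (113), Cd36 (89.0), Plin1 (54.7), Lipe (48.0), Lpl (41.6) and Pparg (17.9) to Lep (2.49). These are bulk samples of whole vessel, so fewer fat cells and less RNA per fat cell cannot be told apart. White fat is the name of the list and not a finding about the cells. The brown fat gene Ucp1 stood at 2.30 to 5.66 times Adipoq in WT Ang II mice. Which type of fat cell the members came from was not tested.

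**Figure D1:**
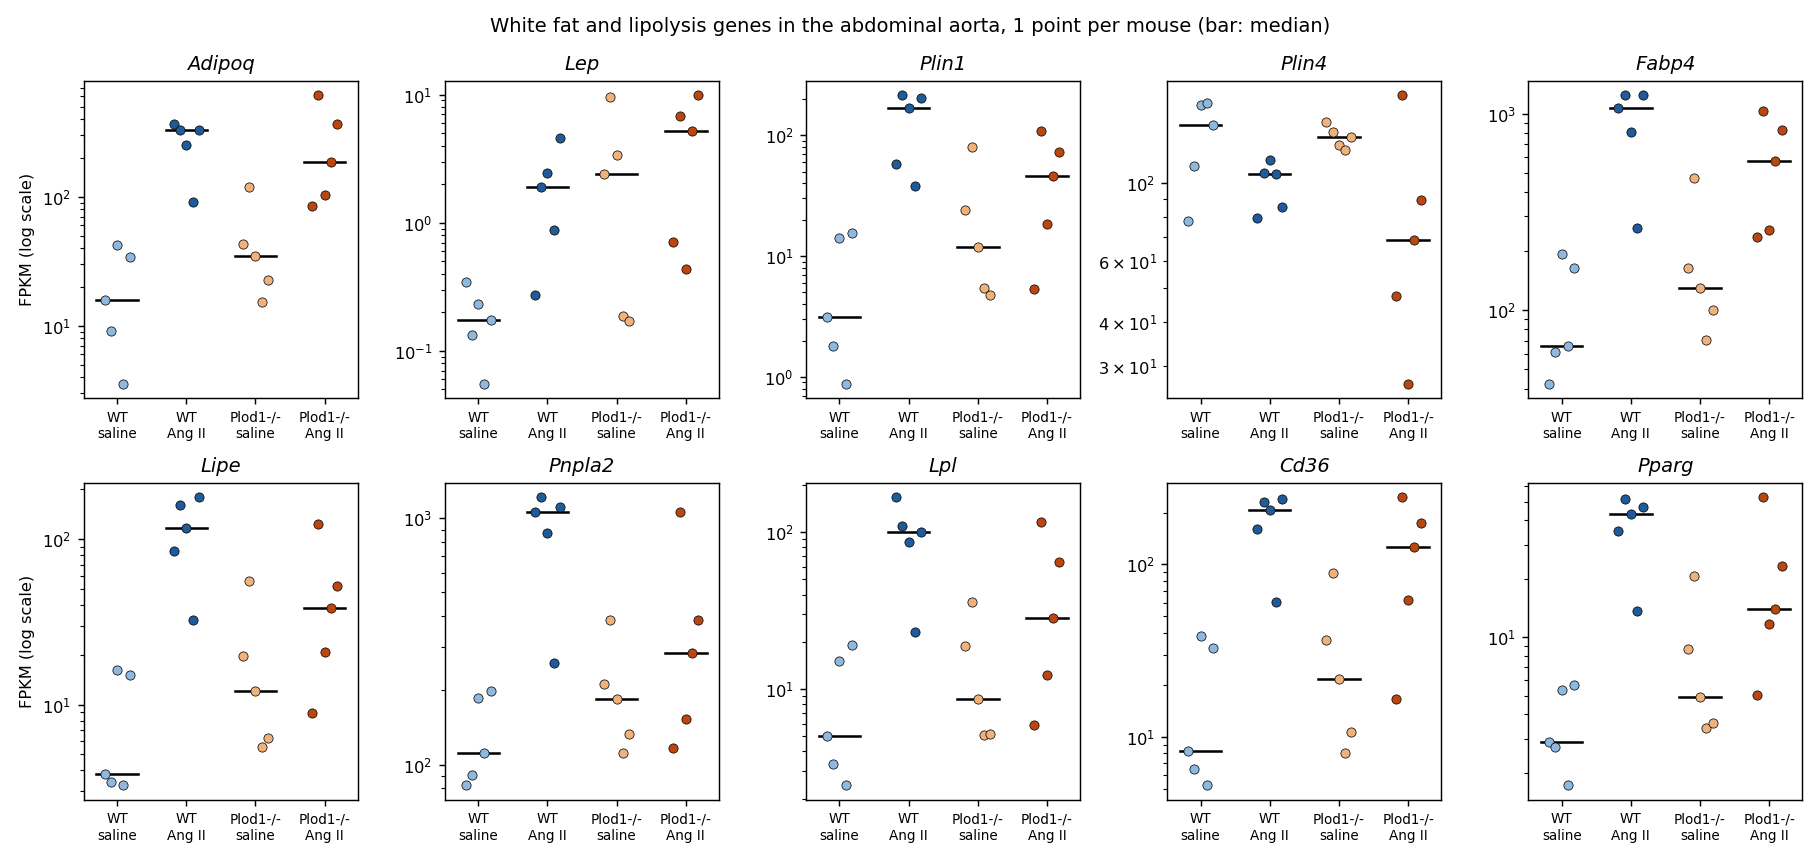
FPKM of each of the 10 genes on a log axis, 1 point for each of 20 mice in 4 groups, with a bar at the group median. In 8 panels every WT Ang II mouse lies above every WT saline mouse; Plin4 and Lep overlap, and the Plod1-/- groups overlap in all 10.

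In WT mice, 8 of the 9 members tested were called higher under Ang II, and none was called lower. Of all 11994 genes tested, 6.38% were called higher and 2.28% lower. Values of both groups were fully apart for 8 of the 9, against 17.3% of all genes tested. The median log2 difference of the 9 members was 3.41, and that of all genes tested was -0.14. The 8 were called under each of the 8 alternative settings and with each of the 10 mice left out. The mitochondrial share also differed between these groups, and the 8 calls were also made with mitochondrial genes left out and the FPKM rescaled.

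In Plod1-/- mice, Adipoq and Fabp4, 2 of the 10 members tested, were called higher under Ang II and none was called lower, while 4, these and Plin4 and Cd36, had an unadjusted p below 0.05. Of all 12333 genes tested, 8.38% were called higher and 5.51% lower. No member separated the groups without overlap, whereas 29.2% of all genes tested did. The median of the members was 1.21 on the log2 scale, against 0.053 for all genes. The number called higher was 5 with weights per mouse, which added Lipe, Cd36 and Pparg, and 3, with Cd36, without both libraries that held Xist RNA. It was 1, Adipoq, with quantile normalization or with no filter on low values.

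Between the genotypes under saline, none of 9 members was called by limma in either direction and none had an unadjusted p below 0.05. All 9 differences were above 0, with a median of 0.76 against -0.0072 for all genes. Of all 11999 genes tested, 0.358% were called higher in Plod1-/- mice and 0.408% lower, and the groups did not overlap in 9.52%, which included no member. Under Ang II, none of 10 members was called by limma between the genotypes, but 3 had an unadjusted p below 0.05, namely Plin1, Lipe and Pnpla2, each with a lower mean in Plod1-/- mice. Here 7.45% of 12356 genes were called higher and 3.67% lower, and 15.1% did not overlap, again with no member among them. The median of the members was -0.95 against 0.12 for all genes, and Lep alone lay above 0. With weights per mouse, Plin1, Lipe, Pnpla2, Lpl and Pparg were called lower, 5 in all. Lipe and Pnpla2 were called without WT Ang II replicate 4, and Lipe, Pnpla2, Lpl and Pparg without Plod1-/- Ang II replicate 2.

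The responses of the genotypes to Ang II were compared with an interaction term over the 20 mice. A negative value is a smaller rise, or a larger fall, in Plod1-/- than in WT mice. For Plin4, whose differences were below 0 in both genotypes, it is the latter. Plin1 and Pnpla2, 2 of the 10 members, were called lower, against 6.36% of 13263 genes called lower and 9.69% called higher. All 10 estimates were negative, with a median of -1.73 against 0.12 for all genes, and 4 had an unadjusted p below 0.05, namely Plin1, Pnpla2, Lipe and Pparg. The members share their mice, so the 10 signs are not independent. The count of 2 fell to 0 in 12 of the 20 fits that left out a mouse and with no filter on low values, and it rose to 5 without WT Ang II replicate 4 or Plod1-/- Ang II replicate 2. Without both libraries that held Xist RNA it was 1.

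**Figure D2:**
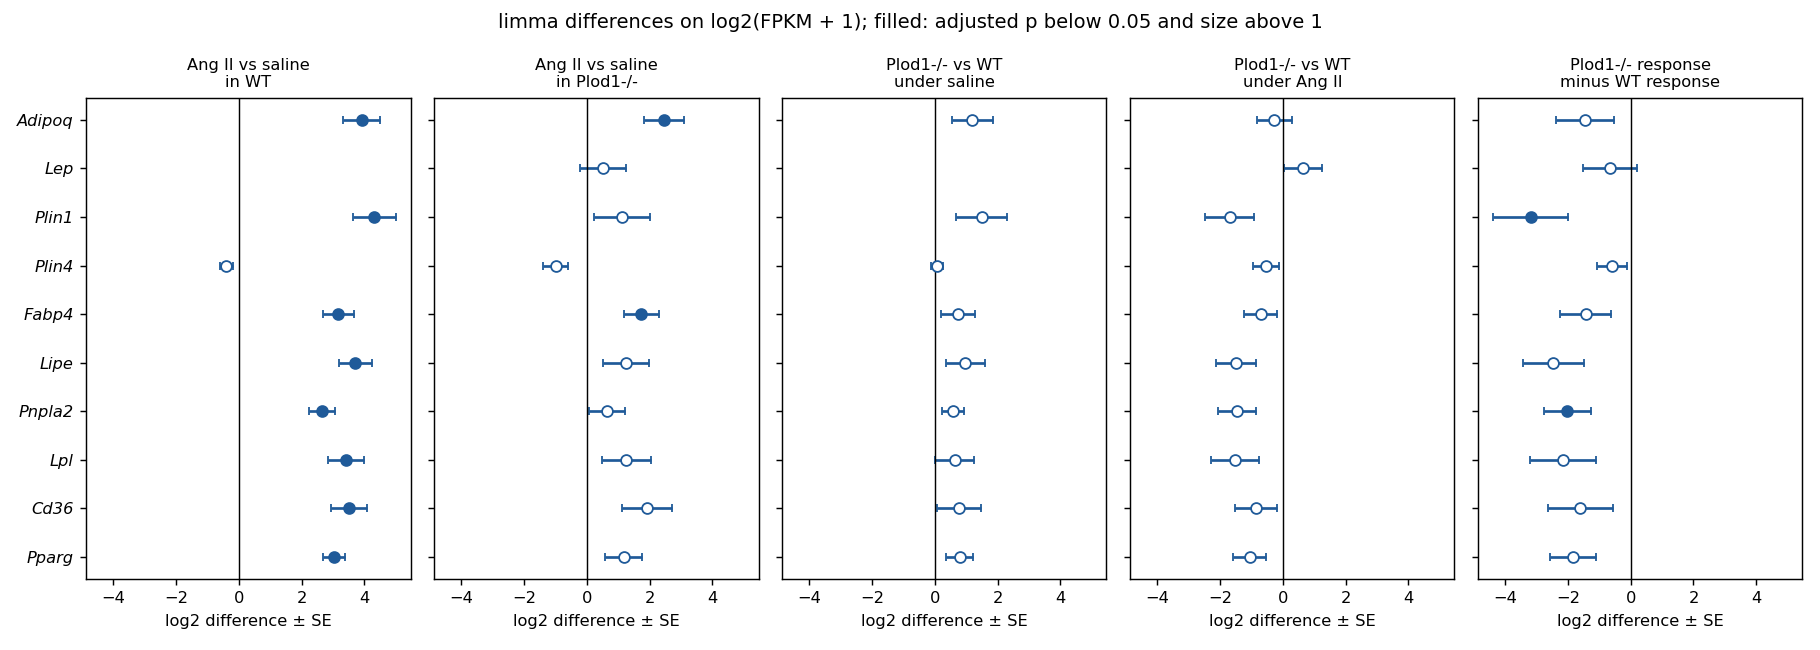
Log2 difference with its SE (limma, log2(FPKM + 1)) of each member in 4 comparisons and in the interaction. Filled points were called. The left panel holds 8 filled points from 2.66 to 4.32, the saline and Ang II genotype panels hold none, and every interaction estimate lies left of 0.

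Adipoq encodes adiponectin, a hormone secreted by mature fat cells. Its FPKM was 15.7, 9.10, 42.3, 3.55 and 33.9 in WT saline and 366, 332, 251, 90.7 and 331 in WT Ang II mice, replicates 1 to 5. Plod1-/- mice stood at 42.7, 119, 34.6, 15.4 and 22.8 under saline and 84.9, 611, 103, 186 and 367 under Ang II. The WT groups were fully apart, whereas Plod1-/- saline replicate 2 lay above 2 of the Plod1-/- Ang II mice. Adipoq rose in WT mice by 3.92 on the log2 scale (SE 0.59, limma adjusted p = 0.00188), a 13.1-fold ratio of mean FPKM. It also rose in Plod1-/- mice, by 2.47 (SE 0.64, adjusted p = 0.00983), a 5.76-fold ratio, and this call was made in each of the 9 alternative settings and 10 fits with a mouse left out. The interaction was -1.46 (SE 0.93, adjusted p = 0.222). It includes a difference between the genotypes under saline of 1.19 (SE 0.66, adjusted p = 0.265). The Ang II-treated groups had nearly equal means, 274 ± 111 FPKM in WT mice against 271 ± 221 FPKM in the knockout (SD, n = 5), and a log2 difference of -0.26 (SE 0.57, adjusted p = 0.747) that was 0.053 without the library that held Xist RNA.

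Lep encodes leptin, the hormone that reports the size of the fat store, and was the lowest of the 10. It reached 1 FPKM in 9 of 20 mice. Its FPKM was 0.346, 0.132, 0.231, 0.0554 and 0.175 in WT saline mice and 0.275, 1.88, 2.43, 0.883 and 4.60 in WT Ang II mice. For the knockout the FPKM was 2.41, 9.64, 3.35, 0.188 and 0.170 under saline and 0.711, 6.78, 0.438, 5.19 and 9.84 under Ang II. Lep thus reached several FPKM in 3 Plod1-/- saline mice, a level that no WT saline mouse had. It was below the filter in 2 comparisons, in which a two-sided exact permutation test gave p = 0.0159 for Ang II in WT mice and p = 0.0952 for genotype under saline, with 0.00794 the smallest p that 5 mice against 5 allow. In the other comparisons its limma adjusted p was 0.607 for Ang II in Plod1-/- mice and 0.424 for genotype under Ang II. Fold changes on this scale understate a gene at this level.

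Plin1, the perilipin that coats the droplet of fat cells and controls access of the lipases, showed the largest difference of the 10 in WT mice. Its FPKM was 3.12, 1.80, 14.1, 0.880 and 15.5 in WT saline and 57.5, 214, 169, 37.9 and 204 in WT Ang II mice. The knockout values were 24.1, 79.3, 11.8, 5.45 and 4.77 under saline and 5.38, 109, 18.4, 46.3 and 72.4 under Ang II. The WT groups did not overlap, and the Plod1-/- groups overlapped over most of their range. Plin1 rose by 4.32 in WT mice (SE 0.69, limma adjusted p = 0.00206), 19.3-fold in mean FPKM. In Plod1-/- mice the difference was 1.12 (SE 0.89, adjusted p = 0.330). The interaction was -3.19 (SE 1.20, adjusted p = 0.0423), called in 7 of 8 alternative settings and in 8 of 20 fits with a mouse left out, and also without both libraries that held Xist RNA. Under Ang II, Plin1 was at 50.3 ± 41.8 FPKM in Plod1-/- and 136 ± 82.9 FPKM in WT mice (SD, n = 5), a log2 difference of -1.70 (SE 0.77, adjusted p = 0.114). Under saline the genotypes differed the other way, by 1.49 (SE 0.81, adjusted p = 0.258), and the interaction includes both differences.

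Plin4, a coat protein of small and newly forming droplets that muscle also expresses, did not follow the others. Its FPKM was 77.9, 111, 166, 169 and 146 in WT saline and 79.5, 107, 116, 106 and 85.5 in WT Ang II mice. Plod1-/- mice stood at 149, 139.6, 128, 125 and 135 under saline and 47.6, 178, 26.7, 68.7 and 89.2 under Ang II. The WT groups overlapped, and in Plod1-/- mice 4 of the 5 Ang II-treated mice lay below all saline-treated mice while replicate 2 lay above them. The log2 difference for Ang II was -0.40 in WT (SE 0.21, adjusted p = 0.153) and -0.99 in Plod1-/- mice (SE 0.40, adjusted p = 0.0672). Without Plod1-/- Ang II replicate 2 the latter was -1.33 and was called lower (adjusted p = 0.00544). The genotypes under saline differed by 0.065 (SE 0.19, adjusted p = 0.851), a sign that turned to -0.076 with weights per mouse. Under Ang II they differed by -0.53 (SE 0.40, adjusted p = 0.337).

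Lipe encodes hormone-sensitive lipase, which splits diacylglycerol during lipolysis. Its FPKM was 3.79, 3.43, 16.2, 3.25 and 15.2 in WT saline and 85.2, 161, 117, 32.3 and 179 in WT Ang II mice. For the knockout the FPKM was 19.6, 55.6, 12.1, 5.58 and 6.30 under saline and 8.95, 124, 20.7, 38.2 and 52.4 under Ang II. The lowest WT Ang II mouse was thus above the highest WT saline mouse, while the Plod1-/- groups overlapped. Lipe rose by 3.72 in WT mice (SE 0.54, limma adjusted p = 0.00181) and differed by 1.25 in Plod1-/- mice (SE 0.73, adjusted p = 0.189). The interaction of -2.47 missed the threshold (SE 0.97, adjusted p = 0.0509). Under Ang II the genotypes differed by -1.49 (SE 0.65, adjusted p = 0.102).

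Pnpla2 encodes adipose triglyceride lipase, which takes the first fatty acid off stored triglyceride, and had a higher level under saline than Lipe in every mouse. Its FPKM was 82.4, 91.0, 186, 111 and 199.9 in WT saline and 1059, 1218, 868, 259.6 and 1106 in WT Ang II mice. The knockout values were 212, 386, 184, 111 and 133 under saline and 116, 1059.8, 153, 283 and 386 under Ang II. Among Plod1-/- Ang II mice replicate 2 alone reached the level of the upper 4 WT Ang II mice, and replicates 1, 3 and 4 lay within the range of the saline group. Pnpla2 rose by 2.66 in WT mice (SE 0.42, limma adjusted p = 0.00206), 6.73-fold in mean FPKM, and differed by 0.64 in Plod1-/- mice (SE 0.56, adjusted p = 0.384). The interaction was -2.02 (SE 0.74, adjusted p = 0.0388), called in 6 of 8 alternative settings and in 7 of 20 fits with a mouse left out, and not without both libraries that held Xist RNA (-1.81, adjusted p = 0.0618). Under Ang II the genotypes differed by -1.45 (SE 0.61, adjusted p = 0.0889). Under saline they differed by 0.57 (SE 0.35, adjusted p = 0.321), and the interaction includes both differences.

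The genes of fatty acid supply and carriage moved with Adipoq in WT mice. Fabp4, the cytosolic fatty acid carrier of fat cells, capillaries and macrophages, was at 42.4, 61.0, 192, 66.1 and 164 FPKM in the saline and 1061, 1236, 807, 262 and 1236 FPKM in the Ang II group of WT mice. Plod1-/- mice stood at 163, 468, 129, 70.9 and 101 FPKM under saline and 234, 1026, 257, 577 and 826 FPKM under Ang II. Plod1-/- saline replicate 2 alone reached into the range of the Plod1-/- Ang II mice. Fabp4 rose by 3.17 in WT (SE 0.51, limma adjusted p = 0.00206) and by 1.73 in Plod1-/- mice (SE 0.56, adjusted p = 0.0276), with an interaction of -1.44 (SE 0.80, adjusted p = 0.162). The second call was made in 7 of 9 alternative settings and in 4 of 10 fits with a mouse left out, lost at adjusted p values up to 0.0719. It was lost without Plod1-/- saline replicate 3, 4 or 5 and without Plod1-/- Ang II replicate 2, 4 or 5.

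Cd36, the fatty acid transporter and scavenger receptor, averaged 18.2 ± 16.0 FPKM in WT saline and 179.6 ± 73.6 FPKM in WT Ang II mice (SD, n = 5). In the individual mice it was at 8.22, 6.52, 38.6, 5.22 and 32.6 FPKM under saline and 160.2, 231, 207, 60.1 and 239.7 FPKM under Ang II. The knockout averaged 33.2 ± 33.3 FPKM and 125 ± 90.6 FPKM in the Plod1-/- saline and Plod1-/- Ang II mice. The knockout mice were at 36.4, 89.3, 21.6, 8.01 and 10.6 FPKM and at 16.5, 246, 61.9, 126 and 175 FPKM, and 4 of the 5 Ang II mice lay above 4 of the 5 saline mice. Cd36 rose by 3.52 in WT mice (SE 0.57, limma adjusted p = 0.00210) and differed by 1.91 in Plod1-/- mice (SE 0.79, adjusted p = 0.0718). Without both libraries that held Xist RNA, the Plod1-/- difference was 2.24 and passed (adjusted p = 0.0252). Lpl, which encodes the lipase that acts on lipoproteins at the capillary wall, averaged 8.98 ± 7.55 FPKM in WT saline and 97.4 ± 51.7 FPKM in WT Ang II mice. It ran from 2.43 to 19.0 FPKM in the former and from 23.1 to 167 FPKM in the latter. In the Plod1-/- groups it averaged 14.7 ± 13.1 FPKM under saline and 45.3 ± 45.5 FPKM under Ang II, with values of 18.8, 35.9, 8.68, 5.06 and 5.15 and of 5.88, 116, 12.3, 28.2 and 64.2 FPKM. Lpl rose by 3.41 in WT mice (SE 0.59, adjusted p = 0.00258), differed by 1.25 in Plod1-/- mice (SE 0.79, adjusted p = 0.220) and had an interaction of -2.16 (SE 1.04, adjusted p = 0.108). Both genes were separate in the WT groups and overlapped in the Plod1-/- groups.

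Pparg, the receptor that drives fat cell formation, was at 2.87, 2.73, 5.32, 1.73 and 5.69 FPKM in WT saline and 35.4, 51.8, 43.1, 13.6 and 46.7 FPKM in WT Ang II mice. The knockout stood at 8.74, 20.8, 4.94, 3.42 and 3.60 FPKM under saline and 5.01, 52.8, 11.7, 14.1 and 23.3 FPKM under Ang II. The lowest WT Ang II mouse lay well above the highest WT saline mouse. Pparg rose by 3.02 in WT mice (SE 0.36, limma adjusted p = 0.00181), and its unadjusted p stood 14th among the 11994 genes tested. The difference was 1.18 in Plod1-/- mice (SE 0.59, adjusted p = 0.132), and the interaction of -1.85 missed the threshold (SE 0.73, adjusted p = 0.0532). Under Ang II the genotypes differed by -1.06 (SE 0.54, adjusted p = 0.153).

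Ordered by mean FPKM, WT Ang II mice were highest for Plin1, Lipe, Pnpla2, Lpl, Cd36, Fabp4 and Pparg, followed by Plod1-/- Ang II, Plod1-/- saline and WT saline mice. The same order held for Adipoq, whose Ang II-treated groups nearly coincided. Lep was highest in Plod1-/- Ang II mice and Plin4 in saline-treated mice of either genotype. For these 8 genes, neighbours in the order passed the test only between Ang II and saline in Plod1-/- mice, for Adipoq and Fabp4. That does not show the others to be equal, since the SD was as large as the mean in several groups, as for Lpl in Plod1-/- Ang II mice.

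Within groups the members tended to be high or low in the same mice. Plod1-/- saline replicate 2 held the highest value of its group for 9 of the 10 members and Plod1-/- Ang II replicate 2 for 9 of the 10. Plod1-/- Ang II replicate 1, which held Xist RNA, was lowest of its group for 8, WT Ang II replicate 4 for 8, Plod1-/- saline replicate 4 for 8 and WT saline replicate 4 for 7. The highest Plin1 value was 20.3 times the lowest among the Plod1-/- Ang II mice and 5.64 times among the WT Ang II mice. For Plin4 the same ratio was 1.20 in Plod1-/- saline mice.

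**Figure D3:**
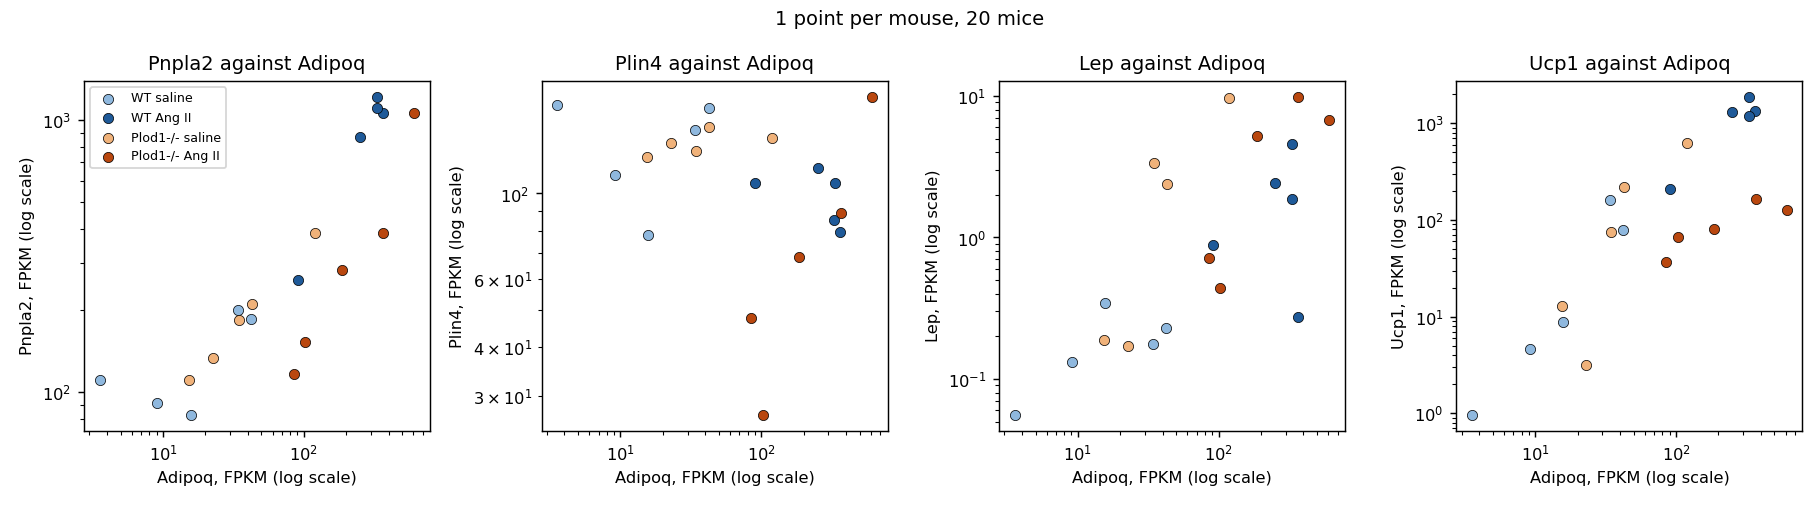
FPKM of Pnpla2, Plin4, Lep and Ucp1 against Adipoq in the same mouse, both axes on log scales, 20 mice coloured by group. Plin4 shows no rise with Adipoq, and per unit of Adipoq the Plod1-/- Ang II mice lie below the WT Ang II mice for Pnpla2 and Ucp1.

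The levels were next read relative to Adipoq in the same mouse, which asks whether the members kept their proportions. Two-sided exact permutation tests, 40 in all, covered 9 members and the brown fat gene Ucp1 in 4 comparisons. Of these, 16 passed at a Benjamini-Hochberg adjusted p below 0.05, all toward less of the gene per Adipoq. Among the members, Adipoq had the largest log2 difference for Ang II in Plod1-/- mice (2.47). In WT mice only Plin1 (4.32) exceeded it (3.92), and between the Ang II-treated genotypes only Lep did. Ratios to Adipoq thus tend to fall in these comparisons, and their shared direction is not a separate result. Between the Ang II-treated genotypes, Lipe, Pnpla2, Lpl, Pparg and Ucp1 were lower relative to Adipoq in Plod1-/- mice. For Lipe the FPKM ratio to Adipoq ran from 0.105 to 0.205 in Plod1-/- Ang II mice and from 0.233 to 0.541 in WT Ang II mice. For Pnpla2 it ran from 1.05 to 1.73 against 2.86 to 3.67, and for Lpl from 0.0692 to 0.190 against 0.254 to 0.458. The groups did not overlap for these 3 genes. On the log2 scale the differences were -1.23 for Lipe, -1.19 for Pnpla2 and -1.26 for Lpl, each with p = 0.00794 by exact permutation, the smallest possible, and an adjusted p of 0.0227. Pparg differed by -0.79 (exact permutation p = 0.0159, adjusted p = 0.0397), passing in 2 of the 10 tests that left out a mouse.

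Ucp1, the uncoupling protein that defines brown and beige fat cells, had the largest difference relative to Adipoq of the 10 genes tested between the Ang II-treated genotypes. Its FPKM was 8.77, 4.68, 79.3, 0.955 and 159.9 in the saline and 1356, 1879, 1317, 208 and 1201 in the Ang II group of WT mice. The knockout values were 219.8, 621, 75.4, 12.9 and 3.18 under saline and 36.6, 126, 66.5, 80.2 and 165 under Ang II. Per unit of Adipoq, Ucp1 ran from 2.30 to 5.66 in WT Ang II and from 0.206 to 0.648 in Plod1-/- Ang II mice, a log2 difference of -3.25 with no overlap (exact permutation p = 0.00794, adjusted p = 0.0227). Cd36, Fabp4, Plin1, Plin4 and Lep did not pass in this comparison, with differences of -0.58, -0.44, -1.43, -0.26 and 0.92.

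Within Plod1-/- mice the ratio to Adipoq was lower under Ang II for 8 of the 9 members, with log2 differences from -0.73 for Fabp4 to -3.46 for Plin4. Cd36 differed by -0.55 and did not pass (exact permutation p = 0.119, adjusted p = 0.183), and Plin1 passed in 4 of the 10 tests that left out a mouse of this comparison. Within WT mice Lep, Plin4 and Pnpla2 passed, with differences of -2.76, -4.32 and -1.27, and the genotypes did not pass for any gene under saline by the exact permutation test, with 0 of 10 at an unadjusted p below 0.05. Plin4 itself differed by -0.40 in WT mice while Adipoq rose by 3.92, so its ratio fell mostly through Adipoq. Pnpla2 was at 82.4 FPKM or more in WT saline mice, where Adipoq stood at 3.55 to 42.3 FPKM. The part of other cells in these saline levels was not tested. The call for Pnpla2 in WT mice was lost without any 1 of the 5 WT Ang II mice and passed in the other 5 tests. Lep in WT mice was lost without WT Ang II replicate 1, and both calls for Lep were lost at a pseudocount of 0.1. Lep was so low that the added 1 weighs on the size of both differences. Its plain FPKM ratio to Adipoq overlapped between Ang II and saline in both genotypes. In WT mice this ratio ran from 0.00517 to 0.0220 under saline and from 0.000751 to 0.0139 under Ang II. The shift depends on the gene chosen as the reference. With Fabp4 in place of Adipoq, an alternative chosen after seeing the data, none of the 40 tests passed, although 15 had an unadjusted p below 0.05. Between the Ang II-treated genotypes the differences relative to Fabp4 were -0.79 for Lipe, -0.75 for Pnpla2, -0.82 for Lpl and -2.81 for Ucp1, and the exact permutation p of Adipoq against Fabp4 was 0.0317. Without both libraries that held Xist RNA none of the 40 passed either, a loss that partly follows from the test. The tests within WT mice hold neither library, so only the adjustment over the 40 tests changed for them. For Ang II in Plod1-/- mice, 4 mice against 4 allow no p below 0.0286. Between the Ang II-treated genotypes the differences relative to Adipoq then stood at -1.09 for Lipe, -1.18 for Pnpla2, -1.06 for Lpl and -3.28 for Ucp1 (adjusted p from 0.0529 to 0.0668).

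**Figure D4:**
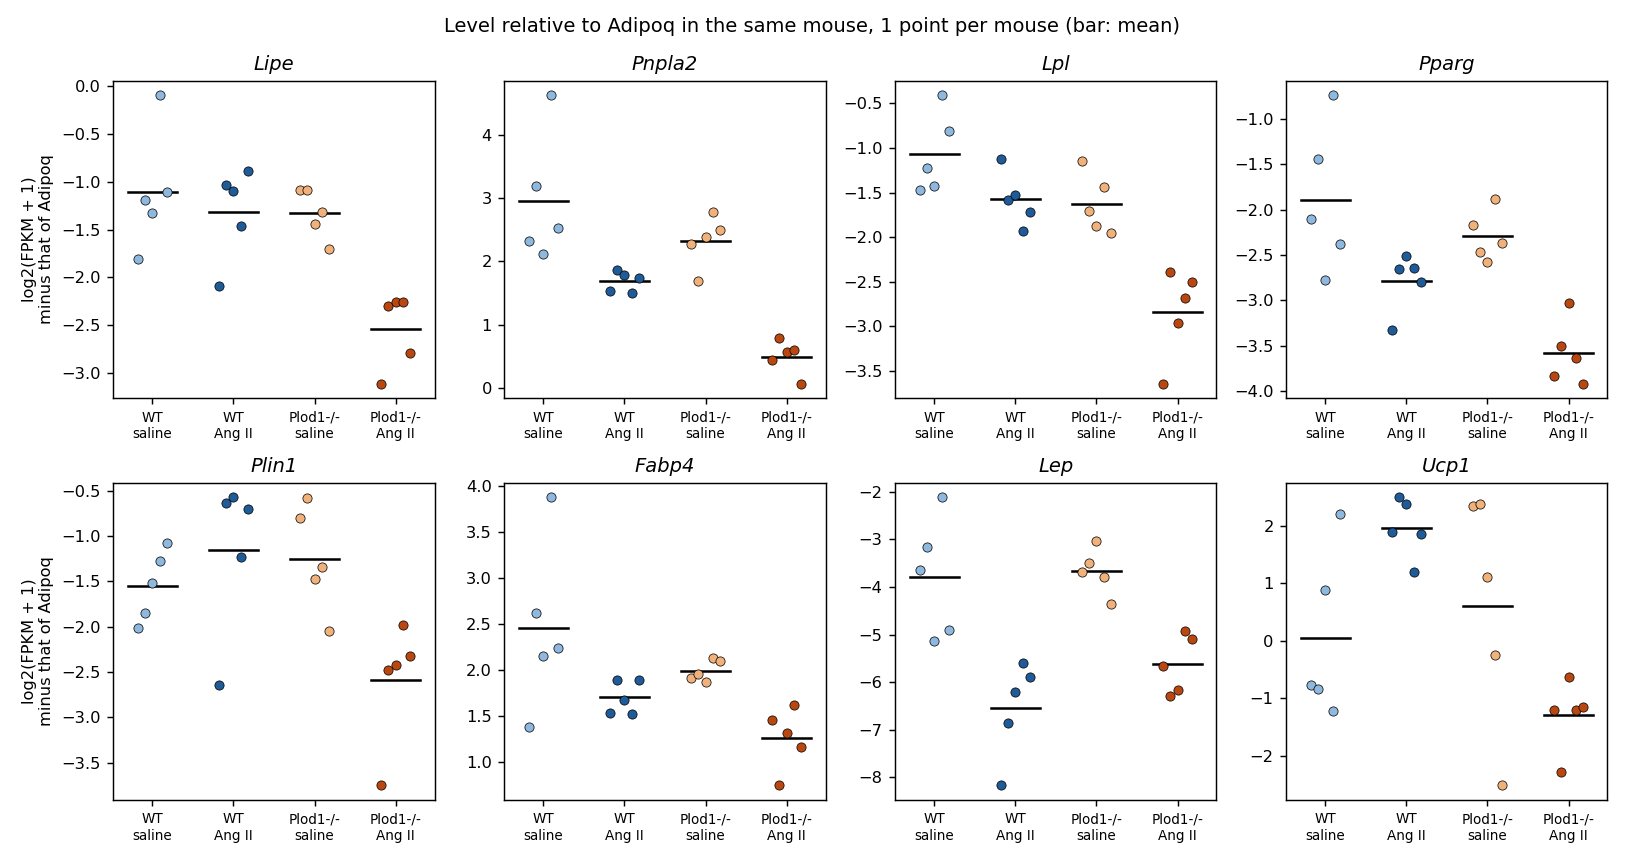
Log2(FPKM + 1) of 8 genes minus that of Adipoq in the same mouse, 1 point per mouse, with a bar at the group mean. For Lipe, Pnpla2, Lpl and Ucp1 all 5 Plod1-/- Ang II mice lie below all 5 WT Ang II mice.

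The genes whose profile over the 20 mice was most like that of Adipoq, by Pearson's r on log2(FPKM + 1) over 13260 genes, were Cidec (0.98), Cmbl (0.98), Mrap (0.98), Car3 (0.97) and Fcor (0.97). Cidec encodes a droplet fusion protein of fat cells, Car3 a carbonic anhydrase abundant in fat, and Mrap a partner of the melanocortin receptors. Among the members, Fabp4 stood 8th (0.96), Cd36 9th (0.96), Pparg 19th (0.95), Lipe 28th (0.93), Lpl 41st (0.92) and Plin1 52nd (0.92). Pnpla2 stood 206th (0.87) and Lep 1447th (0.66), while Plin4 had an r of -0.24. Spearman's rho was 0.97 for Cidec and -0.25 for Plin4, and r without the 2 mice farthest from the median of Adipoq was 0.98 and -0.14. Without both libraries that held Xist RNA, r was 0.98 for Cidec and -0.24 for Plin4. The 20 points share the 4 groups, so these values describe the groups as well as the mice.

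Other genes of the same pathway were read from lists written by gene symbol. Of 12 other white or general adipocyte genes, 9 of 11 tested were called higher under Ang II in WT mice, with a median of 2.85, and 4 of 11 in Plod1-/- mice, with a median of 1.02. The most abundant was Cfd, the fat cell protease adipsin, at 147 ± 77.9 FPKM in the saline and 1029 ± 564 FPKM in the Ang II group of WT mice (SD, n = 5), with log2 rises of 2.85 in WT (adjusted p = 0.00208) and 2.41 in Plod1-/- mice (adjusted p = 0.00727). Car3 rose by 3.10 and 2.30. Cidec rose by 3.55 in WT mice and differed by 2.04 in Plod1-/- mice (adjusted p = 0.0554). Between the Ang II-treated genotypes 3 of the 12 were called lower in Plod1-/- mice, but none of these 3 most abundant genes, and Cfd differed by -0.033. The 3 called lower were Aqp7, Slc2a4 and Thrsp, at -2.36, -2.10 and -3.20, and the 4 called higher in Plod1-/- mice were Car3, Cebpa, Cfd and Retn. Without the libraries that held Xist RNA the same 3 were called lower, and Adipor2 was added to the 4, which made 5. Genes outside the 3 most abundant of a list are named here and below after their values were seen.

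Of 14 partners and brakes of lipolysis, 8 of 13 tested were called higher under Ang II in WT mice and 4 of 13 in Plod1-/- mice, with medians of 1.68 and 0.94. Plin2, the droplet coat found in most cells, rose in both, by 2.47 in WT (adjusted p = 0.00208) and 2.09 in Plod1-/- mice (adjusted p = 0.0164). G0s2, the inhibitor of the lipase encoded by Pnpla2, rose in WT mice from 28.2 ± 20.4 to 218 ± 110 FPKM (SD, n = 5, adjusted p = 0.00266) and differed by 0.62 in Plod1-/- mice (adjusted p = 0.474). Under Ang II, G0s2 averaged 72.5 ± 60.1 FPKM in Plod1-/- and 218 ± 110 FPKM in WT mice (SD, n = 5) and was called lower (-1.73, adjusted p = 0.0379). Mgll, which splits monoacylglycerol in the last step of lipolysis, averaged 35.2 ± 7.58 FPKM in Plod1-/- Ang II and 95.6 ± 32.7 FPKM in WT Ang II mice, also called lower (-1.35, adjusted p = 0.00689). The interaction was called for both, at -2.38 for G0s2 (adjusted p = 0.0427) and -1.87 for Mgll (adjusted p = 5.75e-04). In all, 4 of the 14 were called lower between the Ang II-treated genotypes, the others being Adrb3, the beta-adrenergic receptor of fat cells (-2.85), and Abhd6 (-1.14), and Hilpda, an inhibitor of the lipase encoded by Pnpla2, was called higher (adjusted p = 0.00343). Abhd5 and Hilpda were also among those that rose in Plod1-/- mice. Without the Plod1-/- Ang II library that held Xist RNA, 3 were called lower between these groups and the call for G0s2 was lost.

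All 10 genes of triglyceride synthesis were called higher under Ang II in WT mice, with a median of 1.88, and 0 of the 9 tested were called in Plod1-/- mice, with a median of 0.54. Between the Ang II-treated genotypes 6 of 10 were called lower in Plod1-/- mice, with a median of -1.44. Gpd1, which makes the glycerol backbone, averaged 126 ± 108 FPKM in Plod1-/- Ang II and 937 ± 543 FPKM in WT Ang II mice (SD, n = 5), a log2 difference of -3.08 (adjusted p = 0.0103). Agpat2, an acyltransferase of the pathway, averaged 42.4 ± 16.5 FPKM against 292 ± 198 FPKM, a difference of -2.48 (adjusted p = 0.00759). Pck1, which feeds glycerol synthesis in fat, differed by -2.06 (adjusted p = 0.0470). The interaction was called for the same 6 genes, which also included Dgat2, Lpin1 and Mogat1. Without the Plod1-/- Ang II library that held Xist RNA, 4 were called lower under Ang II, with Lpin1 and Pck1 lost, and without both such libraries 5 were called in the interaction, with Pck1 lost. Gpam alone was then called higher under Ang II in Plod1-/- mice (1 of those tested).

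Of 7 genes that handle lipoprotein lipase, 3 were called higher under Ang II in WT mice, namely Angptl4, Angptl8 and Gpihbp1. In Plod1-/- mice Angptl4 and Gpihbp1 were called higher and Vldlr lower. Gpihbp1, which anchors the lipase on capillaries, rose by 3.36 in WT (adjusted p = 0.00425) and 1.42 in Plod1-/- mice (adjusted p = 0.0301), and Angptl4, which inhibits it, rose by 1.62 and 2.22 (adjusted p = 0.0181 and 0.00106). Of the adipogenic transcription factors, 3 of 9 tested were called higher in WT mice (Cebpa, Nr1h3 and Srebf1) and 2 in Plod1-/- mice (Cebpa and Cebpb). Cebpa, a partner of Pparg, rose by 3.81 in WT (adjusted p = 0.00206) and 2.09 in Plod1-/- mice (adjusted p = 0.0469). Klf15, a factor that muscle expresses too, fell by 1.96 in Plod1-/- mice (adjusted p = 0.00266), with no call in WT mice (-0.23, adjusted p = 0.489), and its interaction was -1.73 (adjusted p = 0.0121). No call of these lists was lost without the libraries that held Xist RNA. Furin, which cleaves the lipase, was then also called higher in Plod1-/- mice, both under Ang II against saline and against WT, and Cebpb against WT and in the interaction.

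Most brown adipocyte genes tested were higher under Ang II in WT mice, as most members were, and lower in Plod1-/- Ang II than in WT Ang II mice. Of 10 listed genes, 5 of 7 tested were called higher under Ang II in WT mice (median 4.41) and 5 of 7 lower in Plod1-/- Ang II than WT mice (median -3.13), in both cases Ucp1, Cox8b, Cidea, Cox7a1 and Elovl3. The same 5 had a negative interaction that was called, and these calls were also made without the libraries that held Xist RNA. The other 2 genes tested moved otherwise. Prdm16, a factor that directs cells to the brown fat fate, fell by 1.28 under Ang II in Plod1-/- mice (adjusted p = 0.00105). Dio2, which activates thyroid hormone in brown fat, was lower in Plod1-/- than WT mice under saline (-1.04, adjusted p = 0.0329) and had an interaction of 1.19 (adjusted p = 0.0431), and both of its calls were lost without the libraries that held Xist RNA. Summed over the list, the FPKM was 41.2 to 445 in WT saline, 615 to 4835 in WT Ang II, 39.4 to 1400.4 in Plod1-/- saline and 168 to 613 in Plod1-/- Ang II mice. Ucp1 rose by 5.83 in WT mice (adjusted p = 0.00383) and differed by -3.52 between the Ang II-treated genotypes (adjusted p = 0.00305), with an interaction of -5.27 (adjusted p = 0.0233). Cox8b and Cidea, a respiratory chain subunit and a droplet protein of brown fat, differed between these groups by -2.86 (adjusted p = 0.00514) and -3.13 (adjusted p = 0.0135). Skeletal muscle genes were also higher in some WT Ang II libraries than in any library of the other groups. Their part in these differences was not tested.

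Markers of other cell types moved beside the members. The summed FPKM of 6 smooth muscle genes was 14089 to 20407 in WT saline, 5509 to 17037 in WT Ang II, 15028 to 20704 in Plod1-/- saline and 2297 to 16760.5 in Plod1-/- Ang II mice. The defining smooth muscle genes were thus abundant in every library, as labelled for aorta, and 2 of 6, Cnn1 and Tagln, were called lower under Ang II in WT and 6 of 6 in Plod1-/- mice. The Ang II-treated mice with the highest smooth muscle sum, WT replicate 4 (17037) and Plod1-/- replicate 1 (16760.5), were those lowest for 8 of the 10 members. Macrophages also express Cd36, Fabp4, Lpl and Pparg. The 7 macrophage genes summed to 182 to 322 and 299 to 1704 FPKM in WT saline and WT Ang II mice, and to 85.4 to 371 and 813 to 4526 FPKM in the Plod1-/- groups. In Plod1-/- mice 7 of 7 were called higher under Ang II, and in WT mice 1 of 7, which was Lyz2. Between the Ang II-treated genotypes 6 of 7 were called higher in Plod1-/- mice (median 1.85), and 6 of 7 in the interaction. Without the libraries that held Xist RNA, these macrophage counts were 7 and 7, and smooth muscle genes called lower between the Ang II-treated genotypes went from 2 to 5 of 6.

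Skeletal muscle genes were seen in some WT Ang II libraries: the 5 genes summed to 2.28, 278, 147, 13.6 and 169 FPKM there, against at most 8.27 FPKM in any other library. Replicate 1, the lowest for skeletal muscle, held the highest Adipoq and Lpl values of that group and the lowest Lep and Plin4 values. Replicate 4, at 13.6 FPKM for skeletal muscle, was lowest of the group for 8 of the 10 members. Replicates 2, 3 and 5, higher for skeletal muscle, stood at 332, 251 and 331 FPKM for Adipoq. The 6 endothelial genes summed to 102 to 264 FPKM in WT saline, 167 to 413 in WT Ang II, 59.0 to 212 in Plod1-/- saline and 65.1 to 323 in Plod1-/- Ang II mice. The 6 fibroblast and preadipocyte genes summed to 262 to 405, 221 to 432, 109 to 277 and 188 to 323 FPKM in the same order. Endothelial Cdh5, Kdr and Rgcc were called higher under Ang II in WT mice, and Cdh5 and Kdr in Plod1-/- mice. The 5 mesothelial and 5 lymphocyte genes summed to no more than 20.9 and 10.1 FPKM in any mouse. No listed marker of any type was under 0.01 FPKM in every mouse of a group. The part of these cell types in the results on the members and on the other lists was not tested.

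**Figure D5:**
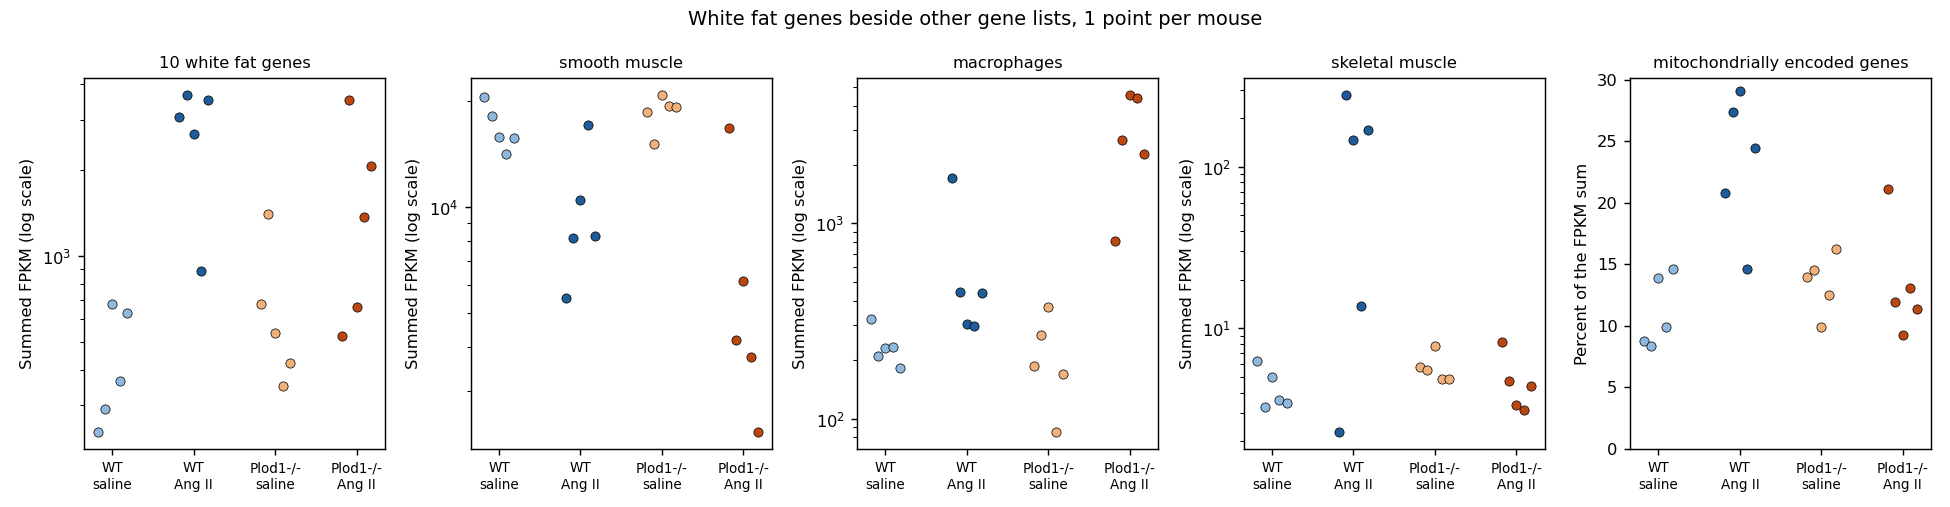
Summed FPKM of the 10 white fat genes, of 6 smooth muscle, 7 macrophage and 5 skeletal muscle genes on log axes, and the percent of the FPKM sum in mitochondrially encoded genes on a linear axis, 1 point per mouse in 4 groups. WT Ang II replicate 4 and Plod1-/- Ang II replicate 1, low for white fat genes within their groups, are high for smooth muscle genes (17037 and 16760.5).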

How the data were processed

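RNA of the abdominal aorta of 20 mice was sequenced, 1 library per mouse, and groups and replicate numbers were taken from the labels. The authors removed ribosomal reads, aligned with HISAT2, and ran stringtie, cuffquant and cuffnorm. What they deposited is FPKM for each Ensembl gene, and the methods name cuffnorm for normalization. The submitters' processing notes name mm10, Bowtie2 2.2.3, HISAT2 2.1.0 and HTSeq 0.6.0. Which of these steps scaled the deposited values between libraries is therefore not settled. Symbols and positions came from GENCODE vM21. Read counts were not used here, so no count test was run, no interval or detection limit is given, and depth limits the low genes most.

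Values were fitted as log2(FPKM + 1) with limma 3.58.1 in R 4.3.3, with a variance trend, for genes at 1 FPKM or more in at least 5 of the mice compared. The tests were two-sided. The interaction used 20 mice. Ratios to Adipoq and genes below the filter were compared by exact permutation tests in Python 3.11.15 (SciPy 1.17.1, pandas 2.3.3), and plots were drawn with matplotlib 3.10.9. The fits were tested on simulated data. Named genes are the 10 members, the 3 most abundant of each list, the 5 most like Adipoq, and Plod1, Xist and Ucp1. Other list genes were named after their values were seen. Members and lists were chosen with earlier results of these data known. Alternatives were a pseudocount of 0.1, no filter, a replicate block, no variance trend, weights per mouse, quantile normalization, 1 fit of all groups, mitochondrial genes left out, libraries with Xist RNA left out, each mouse left out, and, after the data were seen, Fabp4 as reference and the lists without the Xist libraries. Results for 1 gene of the lipolysis partner list are not reported here.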

Additional observations from a re-analysis of the deposited data

Results flagged for a closer look

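Of 40 sets of 5 FPKM values (10 members in 4 groups), 5 held a mouse far from the others by Dixon's 95% criterion. This criterion sets the gap to the nearest mouse against the range of the group. Chance meets it in about 1 of 20 sets only where values are normally distributed. It was applied to FPKM and not to the log2 scale of the other tests, so these 5 sets cannot be compared with that rate. In 4 of them the mouse was Plod1-/- saline replicate 2, at 119 FPKM for Adipoq, 79.3 FPKM for Plin1, 55.6 FPKM for Lipe and 468 FPKM for Fabp4. The fifth was Plod1-/- Ang II replicate 2, at 1059.8 FPKM for Pnpla2. The members share their mice, so these are not independent.

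The response to Ang II was called different between the genotypes for Plin1, by -3.19 on the log2 scale (limma interaction, adjusted p = 0.0423), and for Pnpla2, by -2.02 (adjusted p = 0.0388). These calls were made in 8 and 7 of 20 fits with a mouse left out. Both were lost with no filter on low values, and that for Pnpla2 also without both libraries that held Xist RNA. Plin1 was higher in all 5 WT Ang II mice than in any WT saline mouse, and Pnpla2 likewise, while the Plod1-/- groups overlapped for both. Part of each value is the difference between the genotypes under saline, 1.49 for Plin1 and 0.57 for Pnpla2. Neither of these was called (limma adjusted p = 0.258 and 0.321).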

How the results depend on the processing

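The 8 members called higher under Ang II in WT mice were 8 in all 8 alternatives and 10 fits with a mouse left out, and 0 were called in the genotype comparison under saline in any. In Plod1-/- mice the count called higher under Ang II, 2, was 1 with no filter, 5 with weights per mouse, 1 with quantile normalization and 1 to 4 with a mouse left out, and the count called lower was 0 to 1. Members called lower between the Ang II-treated genotypes, 0, became 5 with weights per mouse, 1 with all 4 groups in one fit and 0 to 4 with a mouse left out. Members called lower in the interaction, 2, became 0 with no filter, 4 with weights per mouse, 4 with mitochondrial genes left out, 1 without both libraries that held Xist RNA and 0 to 5 with a mouse left out. That last count was 0 without WT saline replicate 1, 2 or 4, WT Ang II replicate 2, 3 or 5, Plod1-/- saline replicate 1, 2 or 3, or Plod1-/- Ang II replicate 1, 3 or 4, and 5 without WT Ang II replicate 4 or Plod1-/- Ang II replicate 2. The replicate block gave 4 in the interaction and moved no other count of members by over 1.5 times. Deviations of same-numbered mice correlated at -0.33 to 0.42, and at most 2 of 5 mice were best with their own number. The labels name no pairing, and with so few mice these values cannot exclude one.

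The number of ratios to Adipoq that passed, 16, was 14 at a pseudocount of 0.1, 17 with quantile normalization, 14 to 18 with a mouse left out, 0 with Fabp4 as the reference and 0 without both libraries that held Xist RNA. In that last setting the smallest p possible was 0.0286 for Ang II in Plod1-/- mice, with 4 mice against 4, and 0.00794 in the other comparisons. Directions turned for Plin4 between genotypes under saline (0.065, -0.076 with weights per mouse, -0.12 to 0.16 with a mouse left out) and for Adipoq between the Ang II-treated genotypes (-0.26, 0.053 without the library that held Xist RNA, -0.66 to 0.053 with a mouse left out). The cause of these shifts was not tested. FPKM values without read counts limit what can be said of Lep, which was under 1 FPKM in 11 mice.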
